A study of Mus musculus with 45 samples.

Results

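The data were RNA-seq read counts per gene of primary mouse embryonic fibroblasts (MEFs) 0.5 h after an inflammatory stimulus. MEFs are connective tissue cells grown from embryos. The groups compared were 3 wild type (WT) libraries at 0.5 h, 1 after each of interleukin-1 beta (IL-1b, 10 ng/ml), tumour necrosis factor (TNF, 10 ng/ml) and lipopolysaccharide (LPS, 100 ng/ml), and 3 WT libraries at 0 h, 1 from each of the same series. They are 6 of the 45 libraries of the study, chosen by genotype and time and paired by stimulus series, and the 12 libraries of p53KO MEFs at the same times, numbered as replicates 1 (KO-1) and 2 (KO-2) in their titles, served for comparison. All cells were of strain C57BL/6 at the embryo stage and were held overnight in medium with little serum before the stimulus, and the 0 h libraries received none. WT had 1 library per stimulus and time, and the labels say neither whether the 3 series were separate cultures nor which part of Trp53 was deleted in p53KO. The p-values therefore measure the spread between these libraries, which may be technical.

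IL-1b and TNF are cytokines that signal through their own receptors, and LPS is a bacterial outer membrane component sensed by Toll-like receptor 4. All lead to the transcription factor NF-kB and to MAP kinases. Immediate early genes are those whose transcription starts without new protein synthesis. Many of them are switched on by serum response factor bound to CArG boxes in their promoters, whereas NF-kB binds kB sites and turns on genes of its own inhibitors and of chemokines.

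The 6 WT libraries held 7621412 to 9347770 gene counts (median 8757834), with a count for 16467 to 16823 genes each. The CPM printed are counts of a gene scaled to the library's counts of the genes tested over all 45 libraries, with edgeR's TMM factors. Trp53 stood at 158 to 198 CPM in WT at 0.5 h and 188 to 191 CPM in WT at 0 h, against 50.9 to 68.8 CPM in the 12 p53KO libraries. The 25 fibroblast and matrix markers summed to 56741 to 58005 CPM at 0.5 h and 56479 to 59027 CPM at 0 h, and 0 of them were called by edgeR or DESeq2 (2 higher and 0 lower at an unadjusted p under 0.05). In such bulk libraries, fewer cells of a type and less RNA per cell cannot be told apart. The 18 macrophage markers, all detected, summed to 532 to 677 CPM at 0.5 h and 560 to 580 CPM at 0 h. The endothelial, epithelial, muscle and neural lists summed to 213 CPM or less in each library, with Myf5, Myod1, Pax7 and Ttn at 0 in all 6. No marker of the macrophage or these 4 lists was called, and 1 epithelial marker was higher at an unadjusted p under 0.05. Over all genes tested 0.833% were called higher and 0.11% lower, so lists of these sizes can easily hold no call. The 0.5 h libraries stood apart from each other by transcript length. Across 9610 genes, the Spearman rho of a gene's level relative to the mean of the libraries with its transcript length was -0.42 for the IL-1b library, 0.39 for the TNF library and 0.09 for the LPS library, and between -0.04 and 0.03 at 0 h. Longer transcripts thus tended to read low in the IL-1b library and high in the TNF library, and in the pooled change the rho was -0.00.

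Promoter sequence is shown for 6 of the genes called higher that hold one of the 2 motifs marked, picked with their values known, as the 250 bases before the transcription start in RefSeq (GRCm38.p6), 5′ to 3′ on the strand of the gene. Capitals mark kB sites in the first 4 sequences and a CArG box in the last 2. Nfkbia and Tnfaip3 encode inhibitors of NF-kB, Cxcl1 and Cxcl2 chemokines for neutrophils, Zfp36 a protein that destabilises cytokine messages and Egr2 an immediate early transcription factor. The windows are chr12:55492648-55492897, minus strand for Nfkbia, chr5:90890995-90891244, plus strand for Cxcl1, chr5:90903649-90903898, plus strand for Cxcl2, chr10:19015411-19015660, minus strand for Tnfaip3, chr7:28379229-28379478, minus strand for Zfp36 and chr10:67537316-67537565, plus strand for Egr2.
Nfkbia: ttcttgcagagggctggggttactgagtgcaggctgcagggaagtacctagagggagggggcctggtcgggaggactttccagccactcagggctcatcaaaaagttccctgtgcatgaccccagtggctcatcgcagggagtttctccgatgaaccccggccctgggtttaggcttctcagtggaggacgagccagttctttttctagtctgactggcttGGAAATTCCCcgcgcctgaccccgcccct
Cxcl1: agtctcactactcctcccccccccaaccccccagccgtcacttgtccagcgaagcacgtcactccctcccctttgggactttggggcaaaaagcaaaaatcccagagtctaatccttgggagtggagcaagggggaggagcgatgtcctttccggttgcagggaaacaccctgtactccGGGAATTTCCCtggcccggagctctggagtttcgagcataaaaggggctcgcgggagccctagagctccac
Cxcl2: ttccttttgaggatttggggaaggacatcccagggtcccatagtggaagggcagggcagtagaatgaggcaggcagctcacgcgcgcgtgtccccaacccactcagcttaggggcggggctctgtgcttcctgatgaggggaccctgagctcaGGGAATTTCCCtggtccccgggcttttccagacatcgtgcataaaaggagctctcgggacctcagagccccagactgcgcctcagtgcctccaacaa
Tnfaip3: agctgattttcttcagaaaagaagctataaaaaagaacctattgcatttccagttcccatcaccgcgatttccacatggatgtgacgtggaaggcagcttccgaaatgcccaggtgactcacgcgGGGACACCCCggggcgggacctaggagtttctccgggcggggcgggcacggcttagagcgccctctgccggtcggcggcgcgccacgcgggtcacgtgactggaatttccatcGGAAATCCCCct
Zfp36: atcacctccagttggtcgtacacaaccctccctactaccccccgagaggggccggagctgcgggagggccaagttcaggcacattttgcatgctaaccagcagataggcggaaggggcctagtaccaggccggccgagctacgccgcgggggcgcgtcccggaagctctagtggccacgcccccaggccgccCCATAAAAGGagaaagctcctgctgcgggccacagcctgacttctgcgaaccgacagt
Egr2: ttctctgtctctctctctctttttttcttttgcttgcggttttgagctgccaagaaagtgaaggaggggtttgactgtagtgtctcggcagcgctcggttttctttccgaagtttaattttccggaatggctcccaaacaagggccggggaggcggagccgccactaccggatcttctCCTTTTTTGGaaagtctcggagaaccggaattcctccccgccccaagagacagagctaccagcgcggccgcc

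The first comparison asked which genes changed within 0.5 h over all 3 stimuli. In WT, 106 of 12724 genes were called higher at 0.5 h (0.833% of those tested) and 14 lower (0.11%) by edgeR's quasi-likelihood test with the stimulus series as a block and Benjamini-Hochberg adjusted p under 0.05. The rise was in all 3 series for each of the 106 genes and the fall in all 3 for each of the 14. The calls rest on these same series, so that agreement in sign is largely built into them. The levels at 0.5 h and 0 h overlapped for 6 of the genes called higher and 0 of those called lower, while over all genes tested 5.66% had all 3 levels at 0.5 h above those at 0 h and 6.06% all 3 below. Of the rises, 49 were at least 2-fold and 25 at least 4-fold, while 1 of the 14 falls reached 2-fold. Because the 3 libraries at 0.5 h had different stimuli, the error of this test includes the differences between stimuli, and a gene with a large but unequal rise gets a larger p. Without the IL-1b series 338 genes were called higher and 77 lower, among them 104 of the 106 and 13 of the 14. Without the TNF series 175 and 16 were called, with 98 and 9 of the same genes, and without the LPS series 123 and 14, with 93 and 9. After removal of each library's trend on transcript length and GC content 163 and 48 were called, with 104 and 14 of the same genes. DESeq2's Wald test called 70 and 5, all among the same genes, and did not call, among others, Nfkbia, Tnf, Ccl2 and Ccl7 (adjusted p = 0.0644, 0.373, 0.784 and 0.670).

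**Figure D1:**
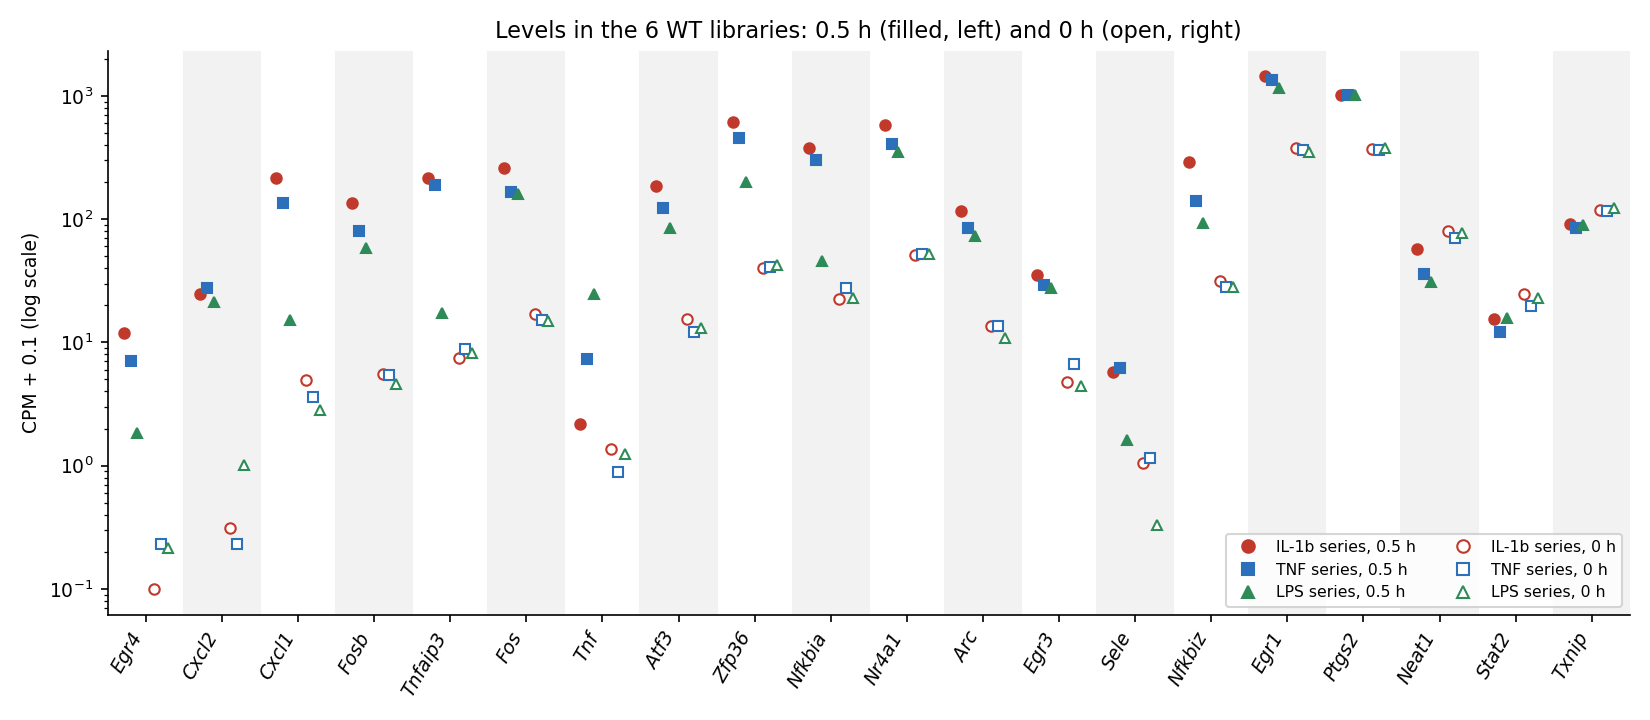
Level of 20 genes in the 6 WT libraries, in CPM with 0.1 added on a log axis; 0.5 h stands on the left of each gene with filled points and 0 h on the right with open points, coloured by stimulus series. For 17 of the genes, Egr4 to Ptgs2, all 3 filled points lie above the 3 open points, with LPS lowest for Nfkbia and Tnfaip3 and highest for Tnf, and for Neat1, Stat2 and Txnip all 3 lie below.

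Immediate early transcription factors rose often, with 17 of 39 listed higher (43.6%, against 0.833% of all genes tested) and 1 lower (2.56%, against 0.11%). Their median log2 change was 0.26, against -0.00 over all genes tested. Fos (ENSMUSG00000021250, chromosome 12, 86814840 to 86818223 on mm9), a subunit of the AP-1 factor, stood at 259, 166 and 158 CPM at 0.5 h of IL-1b, TNF and LPS, against 16.9, 15.2 and 14.9 CPM at 0 h of the same series. All 3 stimulated libraries were far above all 3 unstimulated ones, with a log2 change of 3.63 (SE 0.09, adjusted p = 1.28e-13). Its partner gene Fosb (ENSMUSG00000003545, chromosome 7, 19888070 to 19895394 on mm9) stood at 136, 79.3 and 58.5 CPM at 0.5 h, against 5.42, 5.36 and 4.54 CPM at 0 h in the same order, a log2 change of 4.15 (SE 0.13, adjusted p = 1.01e-12). Egr1 (ENSMUSG00000038418, chromosome 18, 35019477 to 35024638 on mm9), a zinc finger factor, had 1439.9, 1345 and 1167 CPM at 0.5 h, against 378, 365 and 348 CPM at 0 h and a log2 change of 1.85 (SE 0.05, adjusted p = 5.77e-13). The 3 values at 0.5 h lay within a narrow band whichever stimulus was given.

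Further members rose as well. Egr4 (ENSMUSG00000071341, chromosome 6, 85461125 to 85463583 on mm9) had 183 counts over the 3 libraries at 0.5 h and 2 over the 3 at 0 h, a ratio of 88.9 with a 95% interval of 24.2 to 739 for counting error alone. Egr2 had 142, 109 and 107 CPM at 0.5 h, against 32.4, 27.6 and 30.5 CPM at 0 h, with a log2 change of 1.98 (SE 0.08, adjusted p = 9.58e-12), and all 3 stimulated libraries stood well above the unstimulated ones. Egr3 had 35, 29.4 and 27.4 CPM at 0.5 h, against 4.67, 6.53 and 4.31 CPM at 0 h, with a log2 change of 2.58 (SE 0.14, adjusted p = 8.12e-10). The orphan nuclear receptor gene Nr4a1 (ENSMUSG00000023034, chromosome 15, 101097277 to 101105223 on mm9) had 580.0, 404 and 347 CPM at 0.5 h of IL-1b, TNF and LPS, against 51.2, 52.4 and 52.1 CPM at 0 h of the same series, a log2 change of 3.07 (SE 0.10, adjusted p = 1.93e-12). Atf3 (ENSMUSG00000026628, chromosome 1, 192994175 to 193007219 on mm9), a stress-induced factor that often represses transcription, had 184, 123 and 85.2 CPM at 0.5 h, against 15.5, 12.2 and 13 CPM at 0 h, a log2 change of 3.24 (SE 0.11, adjusted p = 2.98e-12). IL-1b gave the highest of the 3 values for each of these genes. Hes1, a repressor downstream of Notch, was the member called lower, with 31.9, 30.3 and 29.8 CPM at 0.5 h, against 40.9, 40.4 and 37.1 CPM at 0 h and a log2 change of -0.36 (SE 0.08, adjusted p = 0.0324).

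Of 36 other immediate early genes 24 were higher (66.7%, against 0.833% of all genes tested, median log2 change 0.63). Arc, known for its role at synapses, had 116, 83.9 and 72.9 CPM at 0.5 h, against 13.6, 13.5 and 10.8 CPM at 0 h and a log2 change of 2.85 (SE 0.09, adjusted p = 1.76e-12). The antiproliferative gene Btg2 had 654, 494 and 422 CPM at 0.5 h, against 134, 121 and 124 CPM at 0 h, a log2 change of 2.03 (SE 0.08, adjusted p = 9.58e-12). It is also a p53 target, and in that list 3 of 25 genes were higher, with Plk2 at 0.67 and Pmaip1 at 0.37 on the log2 scale, and Ddit4 was lower (median log2 change 0.05). Ier2 had 346, 252 and 193 CPM at 0.5 h, against 60.6, 62.1 and 55.5 CPM at 0 h, a log2 change of 2.12 (SE 0.10, adjusted p = 1.17e-10). The matricellular gene Ccn1 (ENSMUSG00000028195, chromosome 3, 145309935 to 145312949 on mm9) was well detected before the stimulus and had 2437, 2291 and 2245 CPM at 0.5 h of IL-1b, TNF and LPS, against 1133, 1163 and 1101 CPM at 0 h of the same series, a log2 change of 1.04 (SE 0.05, adjusted p = 1.68e-10). For Arc, Btg2, Ier2 and Ccn1 all 3 stimulated libraries stood well above the unstimulated ones. The call of Pmaip1 was lost in 4 of 10 other settings.

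Some genes known to limit such responses rose alongside, and what they did in these cells was not tested. Among 14 measured dual-specificity phosphatases and Sprouty proteins, which restrain MAP kinases, 4 were higher (28.6%, against 0.833% of all genes tested, median log2 change 0.12). Dusp1 had 300.5, 215 and 190.4 CPM at 0.5 h, against 49.6, 54.2 and 52.7 CPM at 0 h, a log2 change of 2.16 (SE 0.10, adjusted p = 1.76e-10). Dusp5, Spry2 and Dusp8 changed by 0.73, 0.61 and 0.66 on the log2 scale, and the call of Dusp8 was lost in 5 of 10 other settings. Of 8 mRNA decay factors 3 were higher (37.5%, against 0.833% of all genes tested, median log2 change 0.22). Zfp36 (ENSMUSG00000044786, chromosome 7, 29161803 to 29164274 on mm9) had 609, 452 and 200.4 CPM at 0.5 h of IL-1b, TNF and LPS, against 40, 40.6 and 42.7 CPM at 0 h of the same series, a log2 change of 3.24 (SE 0.19, adjusted p = 3.71e-09). Its relative Zfp36l1 changed by 0.46 (SE 0.07, adjusted p = 5.71e-04) and the ribonuclease gene Zc3h12a by 0.91 (SE 0.17, adjusted p = 0.0073) on the log2 scale, a call lost in 3 of 10 other settings. Rc3h1, of the same list, changed by 0.22 (SE 0.10, adjusted p = 0.54) and was not called.

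NF-kB feedback and subunit genes had 3 of 23 measured members higher, 13.0% against 0.833% of all genes tested (median log2 change 0.04). Nfkbia (ENSMUSG00000021025, chromosome 12, 56590398 to 56593634 on mm9), whose product holds NF-kB in the cytoplasm, had 378, 301 and 46 CPM at 0.5 h of IL-1b, TNF and LPS, against 22.2, 27.4 and 22.7 CPM at 0 h of the same series. The LPS library lay above the 0 h libraries but far below the other 2 stimuli, and the log2 change over the 3 series was 3.07 (SE 0.31, adjusted p = 7.91e-06), against 3.78 without the LPS series. Tnfaip3 (ENSMUSG00000019850, chromosome 10, 18720716 to 18735463 on mm9), which encodes the ubiquitin-editing enzyme A20, had 214, 189 and 17.1 CPM at 0.5 h, against 7.43, 8.76 and 8.06 CPM at 0 h in the same order, a log2 change of 3.96 (SE 0.33, adjusted p = 5.86e-07), against 4.66 without the LPS series. Nfkbiz (ENSMUSG00000035356, chromosome 16, 55811488 to 55839012 on mm9), a nuclear cofactor of NF-kB, had 291, 139 and 93.6 CPM at 0.5 h, against 31.7, 28.2 and 27.9 CPM at 0 h, a log2 change of 2.48 (SE 0.16, adjusted p = 1.99e-08). The next member by p, the deubiquitinase gene Otud1, changed by 0.41 (SE 0.13, adjusted p = 0.252) and was not called.

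Of 18 measured chemokine genes 7 were higher (38.9%, against 0.833% of all genes tested, median log2 change 0.53). Cxcl2 (ENSMUSG00000058427, chromosome 5, 91332897 to 91334935 on mm9) had 24.7, 27.4 and 21.1 CPM at 0.5 h of IL-1b, TNF and LPS, against 0.212, 0.131 and 0.908 CPM at 0 h of the same series, so that all 3 stimulated libraries stood close together, and the log2 change was 5.79 (SE 0.26, adjusted p = 1.17e-10). At 0 h it rested on 2, 1 and 8 counts, and without the LPS series the log2 change was 7.10. Its neighbour Cxcl1 (ENSMUSG00000029380, chromosome 5, 91320267 to 91322141 on mm9) had 215, 136 and 15.1 CPM at 0.5 h, against 4.89, 3.53 and 2.72 CPM at 0 h, a log2 change of 4.97 (SE 0.23, adjusted p = 1.31e-10). For Cxcl1 the LPS value was far under those after IL-1b and TNF. Ccl2 (ENSMUSG00000035385, chromosome 11, 81849073 to 81850955 on mm9), which attracts monocytes, had 239.7, 190.1 and 59.7 CPM at 0.5 h, against 46.8, 44.8 and 47.9 CPM at 0 h, a log2 change of 1.66 (SE 0.23, adjusted p = 2.71e-04). Ccl20 had 25.3, 18.1 and 4.09 CPM at 0.5 h, against 4.67, 2.48 and 2.72 CPM at 0 h and a log2 change of 2.22 (SE 0.23, adjusted p = 1.13e-05). Its LPS library lay within the range of the 0 h libraries. The interferon-induced chemokine gene Cxcl10 had 10.4, 9.44 and 3.86 CPM at 0.5 h, against 3.19, 2.35 and 1.82 CPM at 0 h, a log2 change of 1.66 (SE 0.20, adjusted p = 6.38e-05).

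Among 22 measured cytokine and growth factor genes 5 were higher (22.7%, against 0.833% of all genes tested, median log2 change 0.29). Tnf (ENSMUSG00000024401, chromosome 17, 35336326 to 35338952 on mm9) had 2.1, 7.25 and 24.7 CPM at 0.5 h of IL-1b, TNF and LPS, against 1.27, 0.784 and 1.13 CPM at 0 h of the same series. Its level at 0.5 h was highest after LPS and lowest after IL-1b, and its pooled log2 change was 3.32 (SE 0.36, adjusted p = 1.52e-05), with 2.05 without the LPS series and 4.06 without the IL-1b series. Lif, a cytokine of the interleukin-6 family, had 149.8, 119 and 68.2 CPM at 0.5 h, against 30.5, 31.4 and 30.9 CPM at 0 h, a log2 change of 1.82 (SE 0.13, adjusted p = 9.93e-08). Il6 itself had 13.7, 7.6 and 4.56 CPM at 0.5 h, against 2.44, 2.22 and 2.61 CPM at 0 h and a log2 change of 1.82 (SE 0.24, adjusted p = 1.87e-04). The stress cytokine gene Gdf15 changed by 0.73 (SE 0.15, adjusted p = 0.0154) on the log2 scale, a call lost in 3 of 10 other settings.

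Of 22 measured genes in a list named late effector genes, 5 were higher (22.7%, against 0.833% of all genes tested, median log2 change 0.15). Ptgs2 (ENSMUSG00000032487, chromosome 1, 151947254 to 151955140 on mm9), which encodes the prostaglandin-forming enzyme COX-2, had 1008, 1021 and 1023 CPM at 0.5 h of IL-1b, TNF and LPS, against 368, 365 and 378 CPM at 0 h of the same series. The 3 stimulated values were nearly equal and stood well above the unstimulated ones, with a log2 change of 1.46 (SE 0.05, adjusted p = 2.98e-12). Its mean log2 change over the 3 series was highest at 1 h (2.51, of CPM with 0.5 added), so the list name does not describe its timing here. Sele, the adhesion molecule E-selectin, had 5.62, 6.1 and 1.52 CPM at 0.5 h, against 0.956, 1.05 and 0.227 CPM at 0 h, a log2 change of 2.55 (SE 0.29, adjusted p = 2.53e-05). Ch25h, which makes 25-hydroxycholesterol, and the urokinase gene Plau changed by 1.05 and 0.63 on the log2 scale. Of 28 receptors and adaptors of the 3 stimuli, 2 were higher (7.14%, against 0.833% of all genes tested), with a median log2 change of 0.00. They were Tlr2 with 0.90 (SE 0.14, adjusted p = 0.00142) and the LPS co-receptor gene Cd14 with 0.58 (SE 0.11, adjusted p = 0.0104). The call of Cd14 was lost in 3 of 10 other settings.

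Interferon-stimulated genes, which take part in antiviral defence, had no call, while 0.833% of all genes tested were called higher and 0.11% lower. At such shares a list of 28 genes, or of the 33 cell cycle genes, can easily hold none. Of 28 measured, 0 were called by edgeR, while 2 were lower and 0 higher at an unadjusted p under 0.05, and their median log2 change was -0.21, with Rtp4 at -0.73 (SE 0.27, adjusted p = 0.361) and Isg15 at -0.41 (SE 0.21, adjusted p = 0.619). Of 18 SOCS, STAT and interferon regulatory factors, 1 was higher (5.56%, against 0.833%) and 1 lower (5.56%, against 0.11%). Each of these shares rests on 1 gene, and the median log2 change was -0.10. Irf1, a transcription factor induced by interferon and NF-kB, had 53.7, 36 and 18.7 CPM at 0.5 h, against 19.3, 18.3 and 16.7 CPM at 0 h and a log2 change of 0.96 (SE 0.16, adjusted p = 0.00192), with the LPS value inside the range at 0 h. Stat2 (ENSMUSG00000040033, chromosome 10, 127707629 to 127729905 on mm9), a subunit of the type I interferon factor, had 15.3, 12.1 and 15.6 CPM at 0.5 h, against 24.4, 19.7 and 22.9 CPM at 0 h, a log2 change of -0.64 (SE 0.10, adjusted p = 0.00137). The call of Stat2 was lost in 2 of 10 other settings. Of 20 SRF, MRTF and actin targets, 1 was higher (5.0%, against 0.833% of all genes tested, median log2 change 0.04). It was Ankrd1 with 0.61 (SE 0.06, adjusted p = 4.05e-06). Of 33 cell cycle genes 0 were called by edgeR (median log2 change -0.03), with 3 higher and 3 lower at an unadjusted p under 0.05. DESeq2's calls were all among edgeR's, so it made 0 in these lists too.

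Of the 106 genes called higher, 33 were in no list. Named here after their values were seen, they included Rgs1, an inhibitor of G protein signalling, at 2.47, the small GTPase gene Gem at 1.40, and Ppp1r15a, a phosphatase subunit of the stress response, at 1.04 on the log2 scale. The mitochondrial carrier gene Slc25a25 changed by 0.97, the transcriptional coregulator gene Cited2 by 0.71 and the cochaperone gene Dnajb1 by 0.60. Ppp1r15a had 153, 102 and 98.2 CPM at 0.5 h, against 58.4, 56.7 and 54.8 CPM at 0 h.

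The genes that fell did so by less. Zfp866 (ENSMUSG00000043090, chromosome 8, 72285225 to 72315077 on mm9), a zinc finger gene, had 5.07, 3.68 and 5.26 CPM at 0.5 h, against 11.2, 8.62 and 10.3 CPM at 0 h, a log2 change of -1.10 (SE 0.15, adjusted p = 3.08e-04). It overlaps Atp13a1 on the opposite strand, which had 1787 counts over the 3 libraries at 0.5 h and 1798 at 0 h, and the strand setting of the counting is not given. Neat1 (ENSMUSG00000092274, chromosome 19, 5824708 to 5845478 on mm9), the nuclear RNA that scaffolds paraspeckles, had 56.9, 35.7 and 30.5 CPM at 0.5 h, against 79.6, 70.7 and 77.3 CPM at 0 h, a log2 change of -0.90 (SE 0.11, adjusted p = 8.09e-05). All 3 stimulated libraries lay under all 3 unstimulated ones for both. Txnip, an inhibitor of thioredoxin and of glucose uptake, had 92, 84.5 and 89.6 CPM at 0.5 h, against 119, 115 and 124 CPM at 0 h, a log2 change of -0.43 (SE 0.06, adjusted p = 4.35e-04). Its relative Arrdc3 changed by -0.54 (SE 0.12, adjusted p = 0.0445), Ddit4, an inhibitor of mTOR signalling, by -0.44 (SE 0.07, adjusted p = 0.00177), and Prkab2, a subunit of the energy sensor AMPK, by -0.43 (SE 0.10, adjusted p = 0.0469). The zinc finger gene Zfp760 changed by -0.84 (SE 0.19, adjusted p = 0.0367) and Inip by -0.41 (SE 0.09, adjusted p = 0.0367). The calls of Arrdc3, Prkab2, Hes1, Inip and Zfp760 were each lost in 3 or more of 10 other settings.

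The second comparison set the 3 stimuli side by side. Each has 1 WT library per time, so its error was taken from the p53KO pairs of all 45 libraries, which WT was assumed to share. By edgeR's quasi-likelihood test, 67 of 13851 genes were higher with IL-1b (0.484%), 52 with TNF (0.375%) and 36 with LPS (0.26%), and 3, 1 and 0 were lower (0.0217%, 0.00722% and 0.0%). After LPS 206 genes were lower at an unadjusted p under 0.05. Over the 106 genes called in the pooled comparison, the median log2 change was 1.10 with IL-1b, 0.85 with TNF and 0.66 with LPS. IL-1b gave the highest of the 3 changes for 66 of them, TNF for 24 and LPS for 16, while LPS gave the lowest for 71. Their median transcript length was 2586 bases, against 3444 bases over all genes tested, and short transcripts read high in the IL-1b library. The part of that trend in the order of the stimuli was not tested over the whole list.

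**Figure D2:**
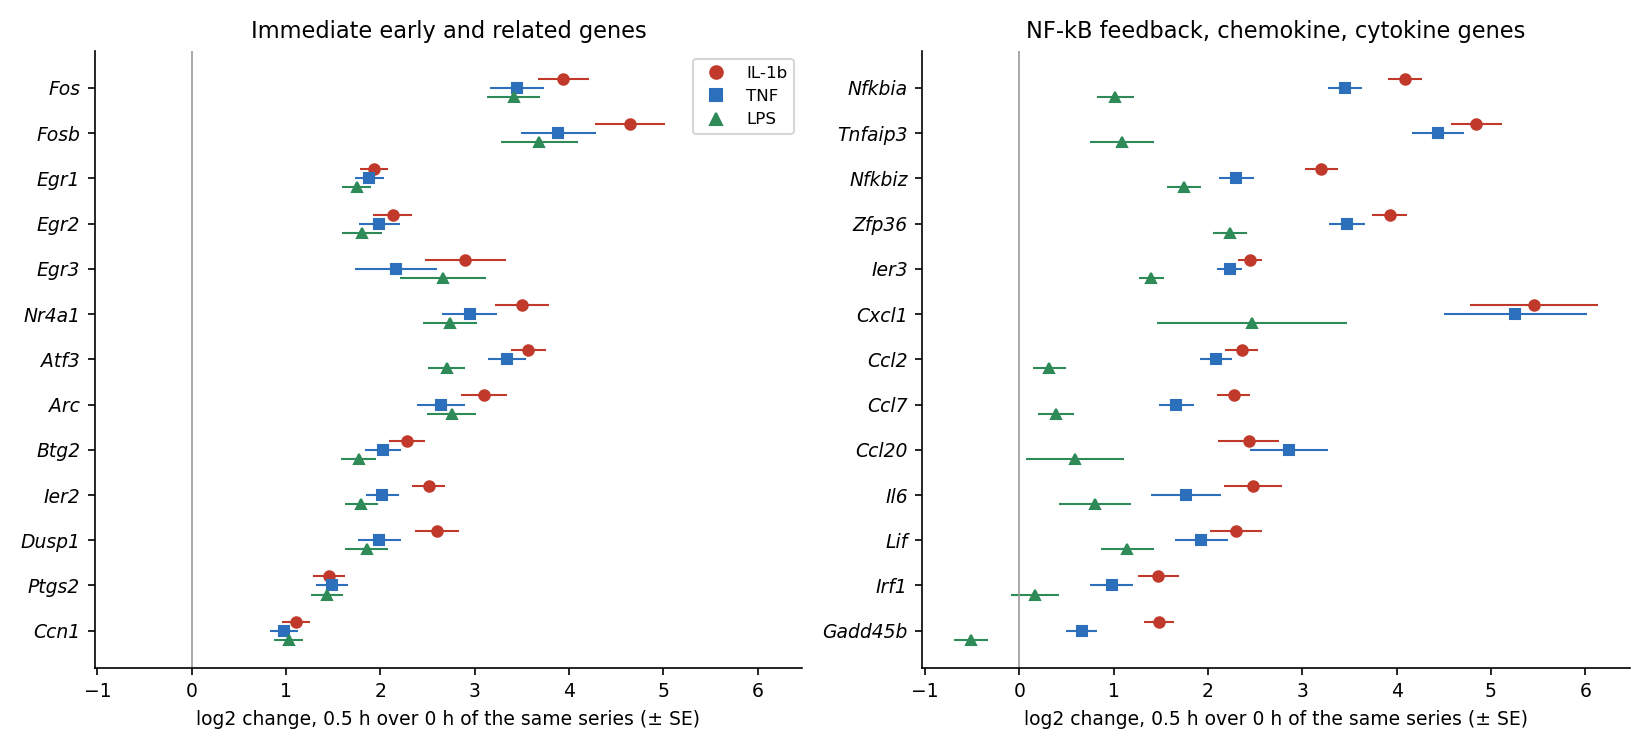
Log2 change at 0.5 h over 0 h of the same series after IL-1b, TNF and LPS in WT, with the standard error from the p53KO pairs; immediate early and related genes are on the left, and NF-kB feedback, chemokine, cytokine and other genes, chosen with their values known, on the right. Genes of both panels were placed with their values known. The 8 genes whose difference between stimuli was called were all placed on the right, among them Nfkbia at 4.09, 3.45 and 1.02. Cxcl1, Ccl20, Il6, Lif and Irf1 there and all genes on the left, such as Ptgs2 at 1.45, 1.48 and 1.43, were not called.

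A difference between stimuli was called for 8 of 13851 genes (0.0578%) by edgeR's quasi-likelihood F test, and for all 8 LPS gave the lowest change. Nfkbia had log2 changes of 4.09 with IL-1b (SE 0.18), 3.45 with TNF (SE 0.18) and 1.02 with LPS (SE 0.20), and adjusted p = 8.75e-07 for the difference. Tnfaip3 changed by 4.84, 4.43 and 1.08 in that order (adjusted p = 2.38e-04), and Ccl2 by 2.36, 2.08 and 0.32 (adjusted p = 1.35e-04). The difference of LPS minus IL-1b was -3.07 for Nfkbia (SE 0.27), -3.76 for Tnfaip3 (SE 0.47) and -2.04 for Ccl2 (SE 0.25). All 8 genes passed for LPS minus IL-1b, these 3 also passed for LPS minus TNF (0.0217% of genes), and 0 passed for IL-1b minus TNF, where 314 genes were above 0 and 325 below at an unadjusted p under 0.05 and Nfkbia differed by 0.63 (SE 0.26, adjusted p = 0.978).

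Gadd45b, a stress gene downstream of NF-kB, read above its 0 h level in the IL-1b and TNF libraries and below it in the LPS library. Its log2 changes were 1.48 (SE 0.16), 0.66 (SE 0.16) and -0.51 (SE 0.18), each from 1 library against 1. Those after TNF and LPS were not called, so a fall after LPS is not shown. It had 85, 55.8 and 23.8 CPM at 0.5 h of IL-1b, TNF and LPS, against 30.5, 35.3 and 33.8 CPM at 0 h of the same series (adjusted p = 2.38e-04 for the difference), and was not called over the 3 series together, with a log2 change of 0.65 (SE 0.21, adjusted p = 0.264). Over 10 other settings its log2 change ran from 0.16 without the IL-1b series to 1.10 without the LPS series, and it was called in 5 of them. Zfp36 changed by 3.93, 3.47 and 2.23 after IL-1b, TNF and LPS (adjusted p = 0.00436), and Ccl7, next to Ccl2 and also a monocyte attractant, by 2.27, 1.67 and 0.39 (adjusted p = 0.00176). Nfkbiz and Ier3, an early gene of cell survival, made up the 8 with adjusted p = 0.0418 and 0.0298. No immediate early transcription factor was among them. For LPS minus IL-1b, Hes1 differed by 0.04 (SE 0.22), Fos by -0.53 (SE 0.41) and Egr1 by -0.18 (SE 0.21). Atf3 differed by -0.86 (SE 0.28), Nr4a1 by -0.77 (SE 0.39) and Fosb by -0.96 (SE 0.65), none of them called. The lack of a call does not show that the changes were equal. Tnf ran the other way at 3.72 (SE 0.87, adjusted p = 0.328) and was not called. Once trends on length and GC content were removed, 7 genes were called, and Ier3 was lost (adjusted p = 0.0859).

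The later WT libraries show where 0.5 h lies in the course of these genes. Of the 106 genes called higher, 11 had their highest mean log2 change over the 3 series at 0.5 h, 71 at 1 h, 20 at 3 h and 4 at 8 h. These counts are a description, since the genes were chosen at 0.5 h and all times share the 0 h libraries. Median log2 changes (of CPM with 0.5 added) were 0.84, 1.71, 0.59 and 0.10 at 0.5, 1, 3 and 8 h. After LPS they were 0.63, 1.66, 0.98 and 0.13, and 30 of the genes were highest at 3 h, against 19 with IL-1b and 13 with TNF. Fos was highest at 0.5 h in each series, with 90.1, 66.7 and 125 CPM at 1 h and 7.68, 9.36 and 11.8 CPM at 3 h of IL-1b, TNF and LPS. Nfkbia reached 516, 468 and 373 CPM at 1 h, so that the LPS library was by then much nearer the others. Tnfaip3 reached 980.2, 852 and 351 CPM at 1 h, and Ccl2 1093, 946 and 401 CPM at 1 h and 1583, 1360.3 and 2206 CPM at 3 h, where LPS was highest. For the 14 genes called lower the medians were -0.48, -0.53, 0.31 and 0.16, and Neat1 stood at 149.8, 142 and 138 CPM at 3 h, above its 0 h levels.

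**Figure D3:**
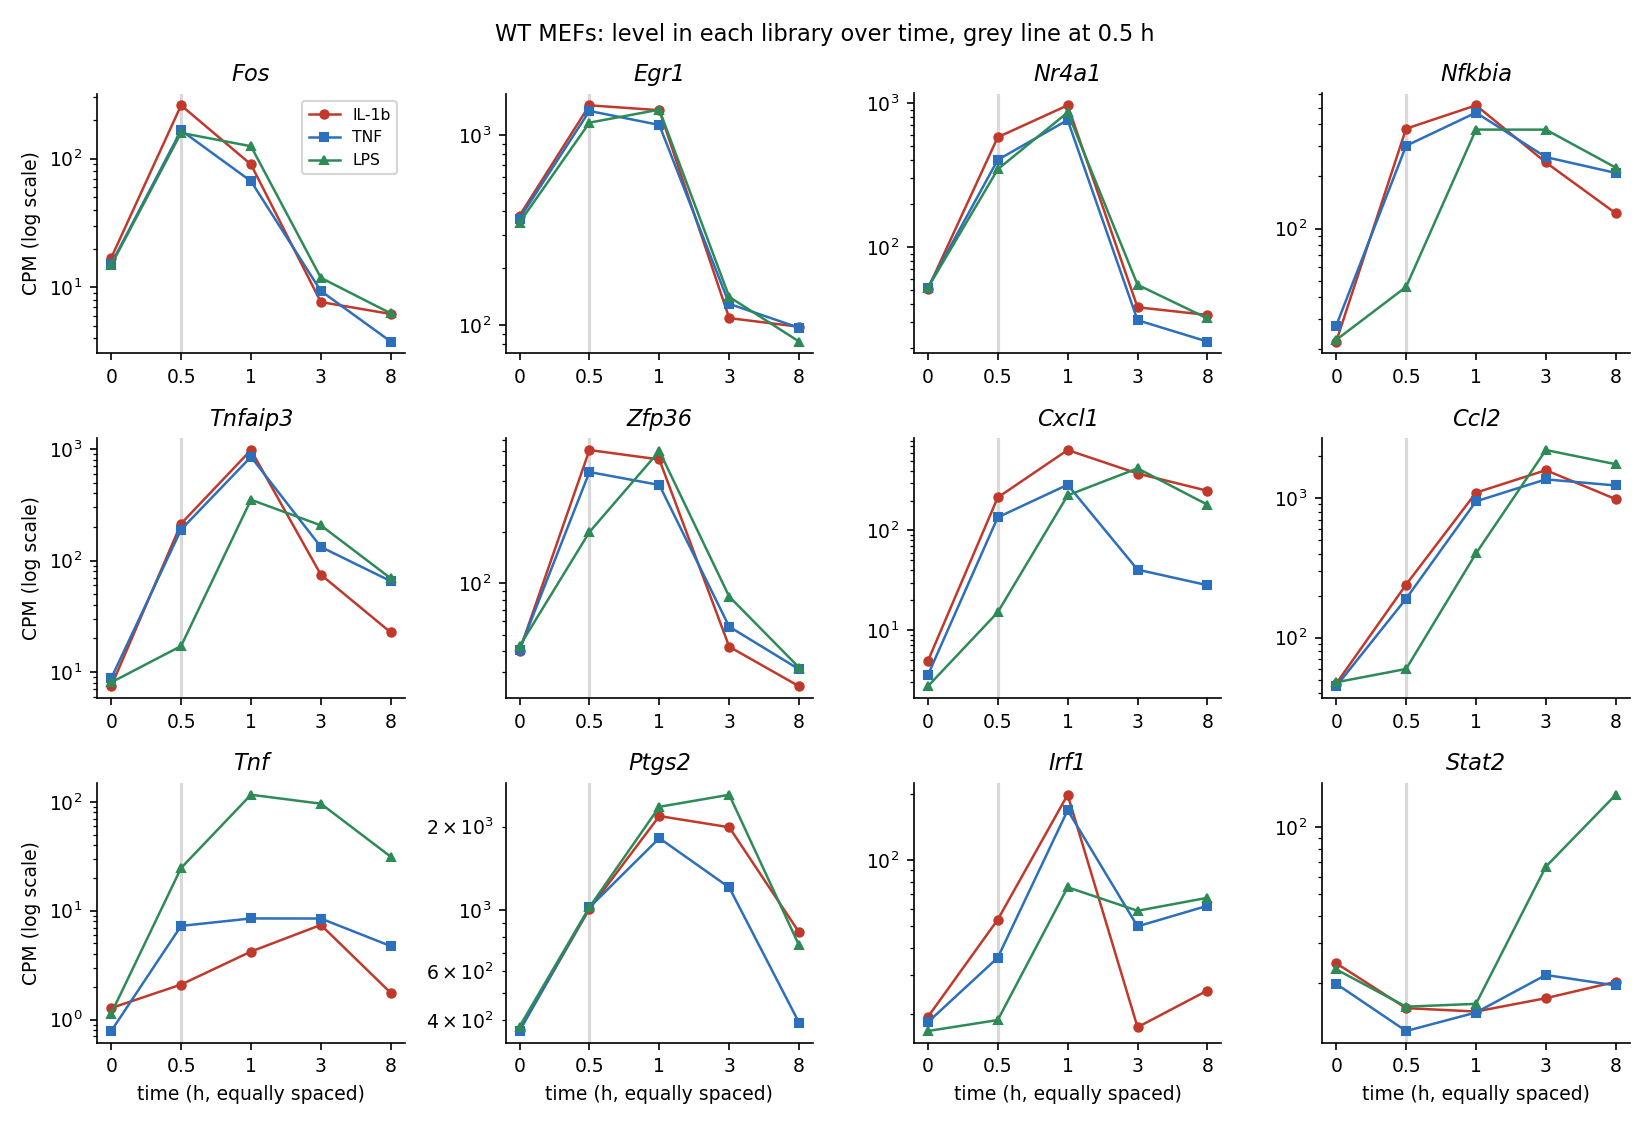
Level of 12 genes in each WT library at 0, 0.5, 1, 3 and 8 h of IL-1b, TNF and LPS, in CPM on a log axis; times are equally spaced and the grey line marks 0.5 h. Fos is highest at 0.5 h, most others at 1 h or later, and for Nfkbia, Tnfaip3 and Ccl2 the LPS line lies under the other 2 at 0.5 h and 1 h.

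The third comparison asked whether the WT change at 0.5 h differed from that in p53KO. Of the 106 genes higher in WT, 105 had a log2 change above 0 in p53KO and 92 were called there, which is 86.8% of the WT calls and 49.7% of the 185 called higher in p53KO (1.38% of 13394 genes). Of the 14 lower genes 13 were called in p53KO, which is 92.9% of the WT calls and 7.60% of the 171 called lower there (1.28%). The p53KO test rested on 6 pairs and the WT test on 3. The median log2 change of the 106 genes was 0.90 in WT and 0.92 in p53KO, and that of the 14 lower genes was -0.485 and -0.728. All these genes were chosen by their change in WT, which can make the WT medians too large. The difference of the changes was called for 3 genes (0.0224%), all smaller in WT, by edgeR's quasi-likelihood test with line and series as a block.

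Those 3 genes are growth-related immediate early genes that started higher in WT. Egr1 had 1439.9, 1345 and 1167 CPM in WT at 0.5 h of IL-1b, TNF and LPS, against 1127 to 1532 CPM (median 1442) in the 6 p53KO libraries at 0.5 h. At 0 h it had 378, 365 and 348 CPM in WT, against 182 to 212 CPM (median 193) in p53KO. The levels at 0.5 h thus overlapped and those at 0 h did not. The log2 change was 1.86 (SE 0.09) in WT and 2.84 (SE 0.06) in p53KO, a difference of -0.98 (SE 0.10, adjusted p = 6.44e-04). Ccn1 had 2437, 2291 and 2245 CPM in WT at 0.5 h, against 1769 to 2118 CPM (median 1945) in p53KO, and 1133, 1163 and 1101 CPM in WT at 0 h, against 526 to 606 CPM (median 567) in p53KO. Its changes of 1.04 in WT and 1.77 in p53KO differed by -0.73 (SE 0.08, adjusted p = 7.92e-04). Ccn2 (ENSMUSG00000019997, chromosome 10, 24315248 to 24318489 on mm9), a matricellular relative, had 2558, 2617 and 2621 CPM in WT at 0.5 h, against 1618 to 2036 CPM (median 1814) in p53KO, and 1839, 1909 and 1803 CPM in WT at 0 h, against 822 to 1041 CPM (median 942) in p53KO. Its changes of 0.50 and 0.95 differed by -0.46 (SE 0.06, adjusted p = 0.00893).

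The next genes by p, Nr4a1 and Btg2, changed by 3.07 and 2.03 in WT, against 3.97 and 3.02 in p53KO, and did not pass (adjusted p = 0.114 for both). Nfkbia and Ptgs2 differed by 0.25 (SE 0.67) and 0.30 (SE 0.10) and were not called. The labels name no second WT preparation, so the genotype cannot be told apart from the preparation of the cells. Without the TNF series 1 difference was called, without the IL-1b series 6, and without KO-2 22.

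**Figure D4:**
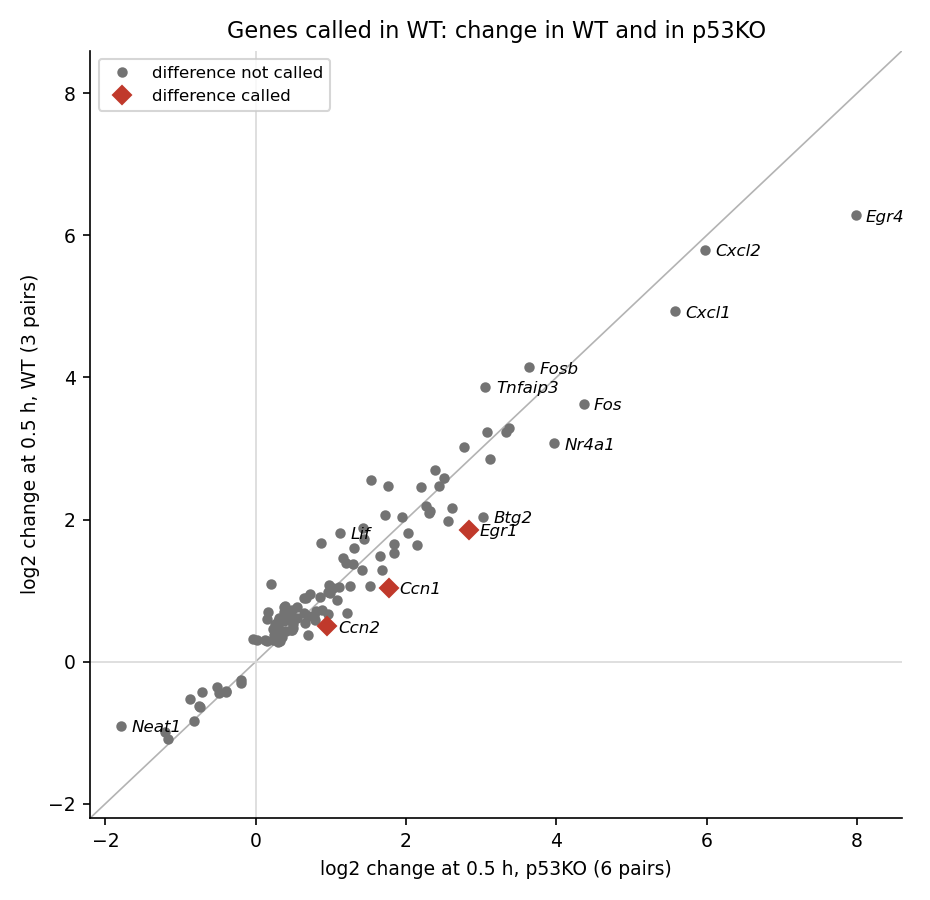
Log2 change at 0.5 h in WT (vertical axis, 3 pairs) against that in p53KO (horizontal axis, 6 pairs) for the 120 genes called in WT, with the line of equal change. Red diamonds mark the 3 genes whose difference was called, Egr1, Ccn1 and Ccn2, all under the line. Egr4 had no count in p53KO at 0 h and 2 in WT, so its position depends on the prior count of the fit.

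The genes called higher were short. Their median genomic span was 6478 bp, against 23207 bp over all genes tested, and their median number of exons was 4 against 8. Of the 106 genes 44 spanned under 5000 bp (41.5%, against 13.4% of all genes tested) and 68 had at most 4 exons (64.2%, against 29.5%). The 14 genes called lower had a median span of 14136 bp. These values are a description, and 2 of the lower genes had no transcript with exons in the annotation used.

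**Figure D5:**
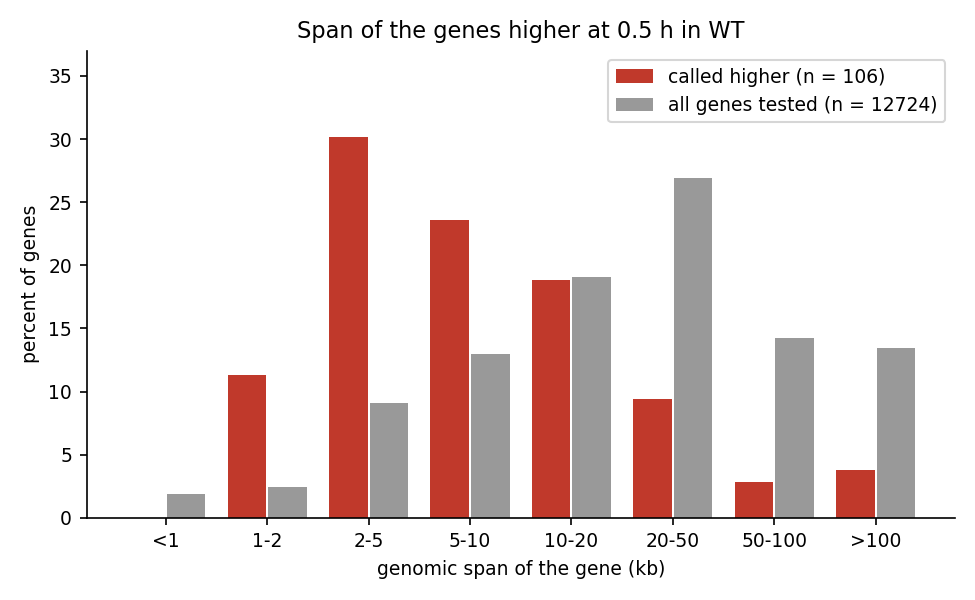
Percent of genes by genomic span in kb, for the 106 genes called higher at 0.5 h in WT (left bars) and the 12724 genes tested (right bars). Genes called higher peak at 2 to 5 kb with 30.2% and all genes tested at 20 to 50 kb with 26.9%.

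The motifs marked in the promoters printed above were searched in the promoters of all genes tested. RefSeq promoters were found for 81 of the 106 genes, with 107 transcription starts, and for 9700 of the genes tested, with 12469 starts. In the 250 bases before the start, on either strand, a kB site lay in 15.0% of the promoters of genes called higher and in 4.60% of all. They included those of Nfkbia, Tnfaip3, Cxcl1, Cxcl2, Cxcl10, Ccl20, Il6 and Irf1, and also of Fos, Fosb and Egr4. A CArG box lay in 6.54%, against 1.21% of all, in Egr2, Zfp36, Dusp5 and Rnd3. The cyclic AMP response element TGACGTCA lay in 10.3%, against 2.57%, among them Btg2, Dusp1 and Ch25h. TATAAA lay in 16.8%, against 6.34%, among them Fos, Tnf, Tnfaip3, Sele and Ccn1. A CArG box can hold TATAAA and then counted for both. None of the 12 promoters of genes called lower held any of the 4. At the shares over all promoters, so few can easily hold none of a given motif. A match of letters is not evidence of binding, and several starts of 1 gene count as separate promoters.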

How the data were processed

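The authors deposited a table of read counts, not normalized, with Ensembl genes as rows and the 45 libraries as columns. Per the labels' protocols, polyA RNA was made into stranded libraries and sequenced with paired ends. Per the submitters' processing notes STAR, featureCounts, DESeq and mm9 were used, and their versions, the strand setting and the annotation are not given in the sources used here. The file held 37991 genes and 5 categories naming no gene, which held 24.7% of the counts and were left out. GENCODE M21 gave a symbol for 32919 IDs and none for 5072.

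In R 4.3.3 with edgeR 4.0.16, genes reaching 1 CPM in 2 or more of the libraries fitted were scaled by TMM and tested by the quasi-likelihood method. The main test took the 6 WT libraries with the series as a block (12724 genes, 2 residual degrees of freedom, prior 14.5). Changes per stimulus and their differences came from 1 fit of all 45 libraries with 30 group means (13851 genes, 15 residual degrees of freedom from the p53KO pairs). The difference between genotypes came from the 18 libraries at 0 h and 0.5 h with the 9 pairs of 0.5 h and 0 h (WT, KO-1 or KO-2 in each stimulus series) as blocks (13394 genes). P-values were Benjamini-Hochberg adjusted over all genes within a contrast. The WT libraries were paired by the stimulus in their titles. Deviations from the group mean correlated within each series (r = 0.148, 0.370 and 0.252 for IL-1b, TNF and LPS across 9610 genes). Between series r lay at -0.256 to 0.032. These values do not show that the libraries of a pair came from 1 culture. Of the 6 pairs of WT libraries of the same time none was identical, and their chi-squared per degree of freedom lay at 1.54 to 9.40, lowest for the IL-1b and LPS libraries at 0 h. The 6 WT libraries held 7621412 or more gene counts each, and counting intervals cover counting error only. The scripts were tested on simulated counts. Standard errors were derived from the tests, as the absolute fitted log2 change divided by the square root of the quasi-likelihood F.

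Alternatives were size factors and the Wald test of DESeq2 1.42.0, other filters, offsets for transcript length and GC content, no block, other sets of libraries and leaving out libraries. The members and gene lists were chosen with earlier results of these data known. Genes named were the 15 largest rises and 10 largest falls with the same direction in all 3 series, up to 4 members per list with the smallest adjusted p, and the 6 lowest adjusted p for the difference between stimuli and for that between genotypes (89 in all), without predicted genes and unnamed IDs. Others named are Ier3, those the text marks, those drawn in the figures and those listed for promoter matches.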

Additional observations from a re-analysis of the deposited data

Results flagged for a closer look

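A difference between the stimuli in the WT change at 0.5 h itself passed edgeR's quasi-likelihood F test for 8 genes. The adjusted p was 8.75e-07 for Nfkbia, 1.35e-04 for Ccl2, 2.38e-04 for Tnfaip3, 2.38e-04 for Gadd45b, 0.00176 for Ccl7, 0.00436 for Zfp36, 0.0298 for Ier3 and 0.0418 for Nfkbiz. Each of the WT values behind these tests comes from 1 library. The LPS change was the lowest for all 8, and the call for Nfkbiz was lost in 7 of 18 other settings, with adjusted p up to 0.485.

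A difference between WT and p53KO in the change at 0.5 h passed the test of the difference for 3 genes, with adjusted p = 6.44e-04 for Egr1, 7.92e-04 for Ccn1 and 0.00893 for Ccn2. WT levels of these genes at 0 h all lay above the p53KO levels. The call for Ccn2 was lost without the LPS series, without the TNF series and without KO-1, and that for Ccn1 without the TNF series (adjusted p = 0.138).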

How the results depend on the processing

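None of the named genes tested in these settings (54 pooled, 8 between stimuli and 3 between genotypes) changed direction. Testing any gene with at least 1 count gave 223 genes higher and 39 lower in the pooled WT comparison, 121, 81 and 64 called after IL-1b, TNF and LPS (70, 53 and 36 in the main test), 18 between stimuli and 33 between genotypes. Removing the length and GC trend gave 163 higher, 48 lower and 5 between genotypes. DESeq2's Wald test gave 70 higher and 5 lower. With no replicate block, so with no pairing by series, 73 were higher and 7 lower, and 3 differed between genotypes. With the mean of the 3 WT 0 h libraries as reference, 85 genes were called after TNF. The label WT, KO-1 or KO-2 as a replicate block gave 84, 65 and 40 per stimulus and 8 between stimuli. Leaving out 1 series at a time gave 123 to 338 higher, 14 to 77 lower, and 1 to 6 between genotypes, while leaving out KO-1 or KO-2 gave 2 or 22 between genotypes. Leaving out each p53KO library gave 69 to 72, 51 to 54 and 35 to 37 per stimulus and 7 to 8 between stimuli. The causes were not tested.

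Of 536 alternative values for 54 named genes in the pooled comparison, 471 stayed on their side of the threshold, 60 lost the call and 5, all of Gadd45b, gained one. Sele was lost with no replicate block and with all 45 libraries fitted. Tnf, Ccl20 and Irf1 were lost with no block and by DESeq2. Low counts at 0 h limit Egr4, Cxcl2, Sele, Rgs1, Tnf, Cxcl10 and Il6.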
